A study of Mus with 9 samples.

Results

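The numbered Zfp genes of the mouse encode zinc finger proteins that were named in order of discovery. They were taken as protein-coding genes whose symbol is Zfp followed by a digit and whose mean level over 9 bone marrow libraries was at least 5 CPM (each count divided by the total of its library and scaled by 1e6). This gave 229 members out of 394 numbered Zfp genes and 54532 genes in all. The level rule used the mean of all libraries, so that 47 members stood below 5 CPM in at least 1 group and passed through the others. Such members had to differ between groups, and 38 of the 47 were called in some comparison, so that counts over the members are given as descriptions. Of the 47, 9 reached the level in 1 group only, and those described below (Zfp9, Zfp827, Zfp57, Zfp532 and Zfp61) are given by their values without a test. Counts of called members include them. The others of the 47, Zfp423, Zfp697 and Zfp7 among them, also passed through the groups where they were high. Tests of those differences are therefore descriptions as well.

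The libraries fell into 3 groups of 3, labelled Vec (1, 2 and 4), CCND2wt (2, 3 and 4) and CCND2mut (1, 2 and 3). In every group the donor cells were fetal liver cells of embryonic day 12.5 from mice with a conditional AML1-ETO knock-in tagged with mCherry, the fusion of acute myeloid leukaemia that joins RUNX1 to RUNX1T1. They were infected with the retroviral vector MSCV-IRES-EGFP, which was empty in Vec, carried cyclin D2 in CCND2wt and carried cyclin D2 with the change Thr280Ala in CCND2mut, and were then given with supportive cells to lethally irradiated C57BL/6 mice. The sequenced material was bone marrow, which can also hold host and supportive cells, and neither the ages of the mice nor the driver of the conditional allele is stated in the labels.

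Most numbered Zfp proteins are C2H2 zinc finger proteins that bind DNA, and many of them carry a KRAB box. The KRAB box recruits TRIM28 (KAP1), which brings the histone methyltransferase SETDB1 and HP1 proteins and silences retrotransposons and imprinted loci. These genes arose by tandem duplication and lie in clusters of close relatives, and a few numbered Zfp genes, such as those of the Zfp36 family, encode proteins of a different kind that act on RNA.

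The labels were set against the counts before the members were described. Ccnd2 stood at 75.8, 74.2 and 86.4 CPM in Vec, 7.84, 9.71 and 12.1 in CCND2wt, and 12.1, 52.0 and 51.1 in CCND2mut, so that the libraries labelled for added cyclin D2 held fewer Ccnd2 reads than Vec, and every direction below is one between labelled libraries. Totals were 15043755 to 17593634 counts, and 15660 genes, all 229 members among them, were tested in edgeR. Whether the replicates of a group came from separate mice is not stated, so that p-values reflect differences between these libraries alone, and these may be technical. The CCND2wt libraries lay closer to each other (chi-square per gene of 7 to 17.7) than libraries within the other groups (53.3 to 148). Marker levels of blood cell types also moved with the groups. The summed level of 6 B cell markers was 82.96 to 1182 CPM in Vec, 33.8 to 36.8 in CCND2wt and 20.5 to 75.7 in CCND2mut. Against Vec, 3 of 6 fell in CCND2wt and 6 of 6 in CCND2mut. That of 6 stem and progenitor markers was 1482 to 1883, 2057 to 2169 and 206 to 534 CPM, with 1 of 6 falling in CCND2wt and 5 of 6 in CCND2mut. That of 6 monocyte and macrophage markers was 23.1 to 292, 32.4 to 36.6 and 1248 to 4437 CPM, with 1 of 6 falling in CCND2wt and 3 of 6 rising in CCND2mut. Erythroid markers, 8 in all, summed to 136 to 16902, 1130 to 1417 and 30.9 to 287 CPM, with 7 of 8 falling in CCND2mut. Maturing neutrophil markers, 8 in all, summed to 440.0 to 13865, 141 to 260.4 and 2751 to 17959 CPM, with 1 of 8 falling in CCND2wt and 1 rising in CCND2mut. Cell division markers, 6 in all, summed to 775 to 1388, 2112 to 2307 and 1680 to 2454 CPM, with 3 rising in CCND2wt, and with 5 rising and 1 falling in CCND2mut. Mast cell and basophil markers, 6 in all, summed to 6502 to 9424, 11197 to 11297 and 1186 to 8412 CPM, with 3 rising in CCND2wt and 2 in CCND2mut. No marker of these lists was at 0 in a whole group. The part of these cell types in any result below was not tested, and in bulk marrow fewer cells of a type and less RNA per cell cannot be told apart.

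Numbered Zfp genes were transcribed at low levels. Their median level was 20.1 CPM, against 44.0 CPM for all protein-coding genes of at least 5 CPM, and per kilobase of gene length it was 3.94 against 9.40 CPM. Of the members, 62 lay between 5 and 10 CPM, 147 between 10 and 100 CPM and 20 at 100 CPM or more. Just inside the threshold lay Zfp184 at 5.02 and Zfp975 at 5.11 CPM, and just outside it Zfp760 at 4.76 and Zfp605 at 4.75 CPM. Per kilobase, the level was highest for the RNA-binding proteins Zfp36 (579 CPM), Zfp36l2 (282 CPM) and Zfp36l1 (73.4 CPM), followed by Zfp740 (34.4 CPM) and Zfp598 (31.3 CPM). The authors' annotation placed 193 members in the zf-C2H2 family, 1 in the ZBTB family (Zfp131) and 35 in no family. The summed level of all members was 11502 to 13438 CPM in Vec, 12441 to 12562 in CCND2wt and 7383 to 8303 in CCND2mut. Without the 3 Zfp36 family genes these ranges were 7870.2 to 8164, 8240.0 to 8938 and 6188 to 6809 CPM, so that in both sums each CCND2mut library lay below every library of the other groups.

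In CCND2wt against Vec, 19 of 229 members rose and 14 fell (edgeR adjusted p below 0.05). These are 8.30% and 6.11% of the members, beside 9.71% and 9.05% of all genes tested and 11.2% and 9.13% of protein-coding genes of at least 5 CPM, and 14.4% in either direction beside 18.8% and 20.4%. In CCND2mut against Vec, 27 members rose and 82 fell. The share that fell was 35.8% of the members, beside 26.9% of all genes tested and 27.2% of protein-coding genes of at least 5 CPM. The share that rose was 11.8%, beside 24.9% and 30.8%, and in either direction it was 47.6%, beside 51.8% and 57.9%. The median log2 fold change of the members was -0.32, against -0.03 over all genes tested, while in CCND2wt against Vec it was 0.07 against -0.04.

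Between CCND2mut and CCND2wt, 25 members were higher in CCND2mut and 80 lower. These are 10.9% and 34.9% of the members, beside 23.2% and 23.8% of all genes tested and 27.1% and 24.7% of protein-coding genes of at least 5 CPM. In either direction the share was 45.9%, beside 47.0% and 51.8%, and the median log2 fold change was -0.36, against 0.02 over all genes tested. Both comparisons with Vec share the Vec libraries, so that their values are set side by side and not as independent results. In all, 137 members were called in at least 1 comparison and 92 in none. The same shares over all genes tested were not computed, so that these counts are descriptions. Fold changes were computed after scaling by TMM factors (0.894 to 1.09), so that a fold can differ slightly from the ratio of printed CPM values.

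**Figure D1:**
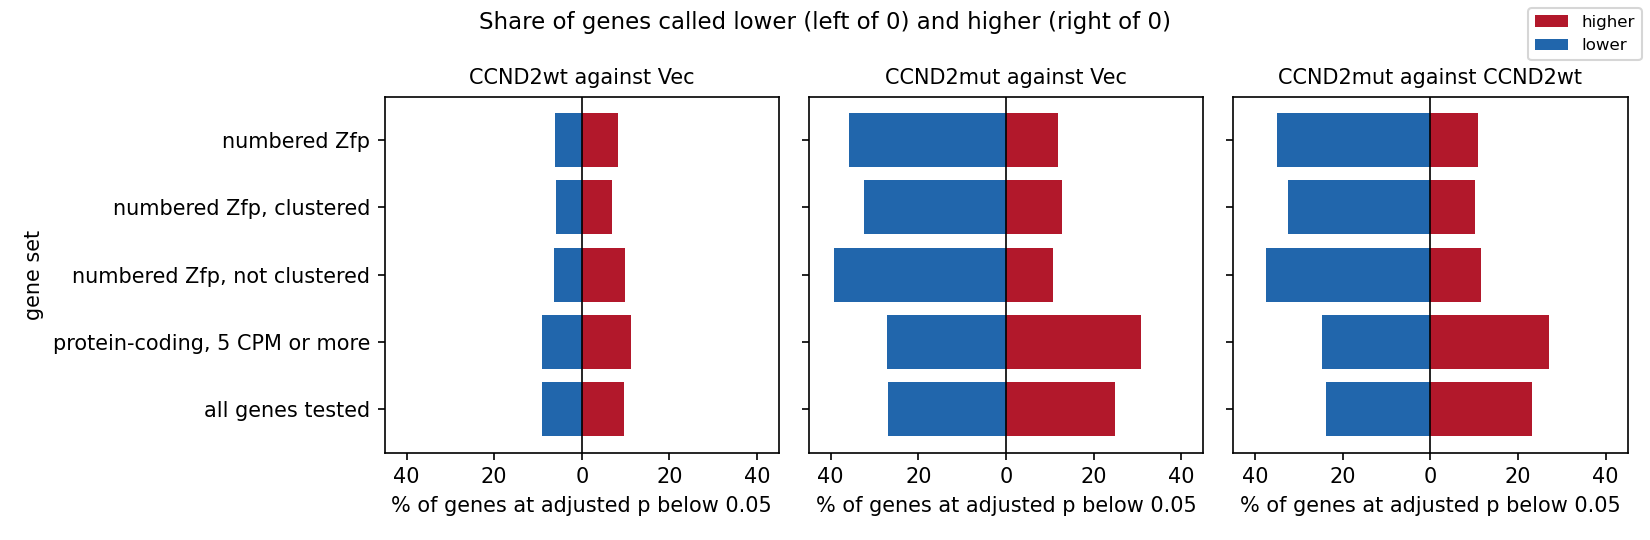
Share of genes (percent, x axis) that were lower (blue, left of 0) or higher (red, right of 0) at an edgeR adjusted p below 0.05 in each comparison, for all 229 members, the 117 in genomic clusters, the 112 outside them, protein-coding genes of at least 5 CPM and all genes tested. In both comparisons of CCND2mut the bar of the members is longer to the left (35.8% and 34.9%) than to the right (11.8% and 10.9%).

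Other zinc finger families of at least 5 CPM gave these counts. Of 35 Zbtb genes, whose proteins join a BTB domain to zinc fingers, 3 rose and 10 fell in CCND2mut against Vec (8.57% and 28.6%, beside 24.9% and 26.9% of all genes tested), and 3 rose and 2 fell in CCND2wt against Vec (8.57% and 5.71%, beside 9.71% and 9.05%). Of 14 Zscan and Zkscan genes, whose proteins join a SCAN domain to zinc fingers, none rose and 6 fell in CCND2mut against Vec (median log2 fold change -0.30). The 42.9% that fell lies beside 26.9% of all genes tested, of which 24.9% rose. None of the 14 passed edgeR in CCND2wt against Vec, where 6 had an unadjusted p below 0.05 (5 higher and 1 lower) and DESeq2 called 2 higher. Of all genes tested 9.71% rose and 9.05% fell there.

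Of the members, 117 (51.1%) lay in 20 genomic clusters, defined as at least 3 members whose neighbouring starts are at most 1 Mb apart (coordinates are those of the mm10 build). Chromosome 7 held 53 members and 8 of the clusters, and chromosome 17 held 29 members. The clustered members gave 15 higher and 38 lower genes in CCND2mut against Vec, and the 112 members outside clusters gave 12 and 44. As shares, 12.8% and 32.5% of the clustered and 10.7% and 39.3% of the other members, they lie beside 24.9% and 26.9% of all genes tested. In CCND2wt against Vec the counts were 8 and 7 for clustered members and 11 and 7 for the others (9.71% and 9.05% of all genes tested). The counts given below for single clusters lie beside the same shares of all genes tested. Closely related genes of a cluster can share reads, and how the authors' counting treated such reads is not stated in the labels, so that values of near neighbours may not be independent. Of the members, 35 also overlap another gene of at least 1 CPM, and without a stated strand setting their reads cannot be told apart.

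**Figure D2:**
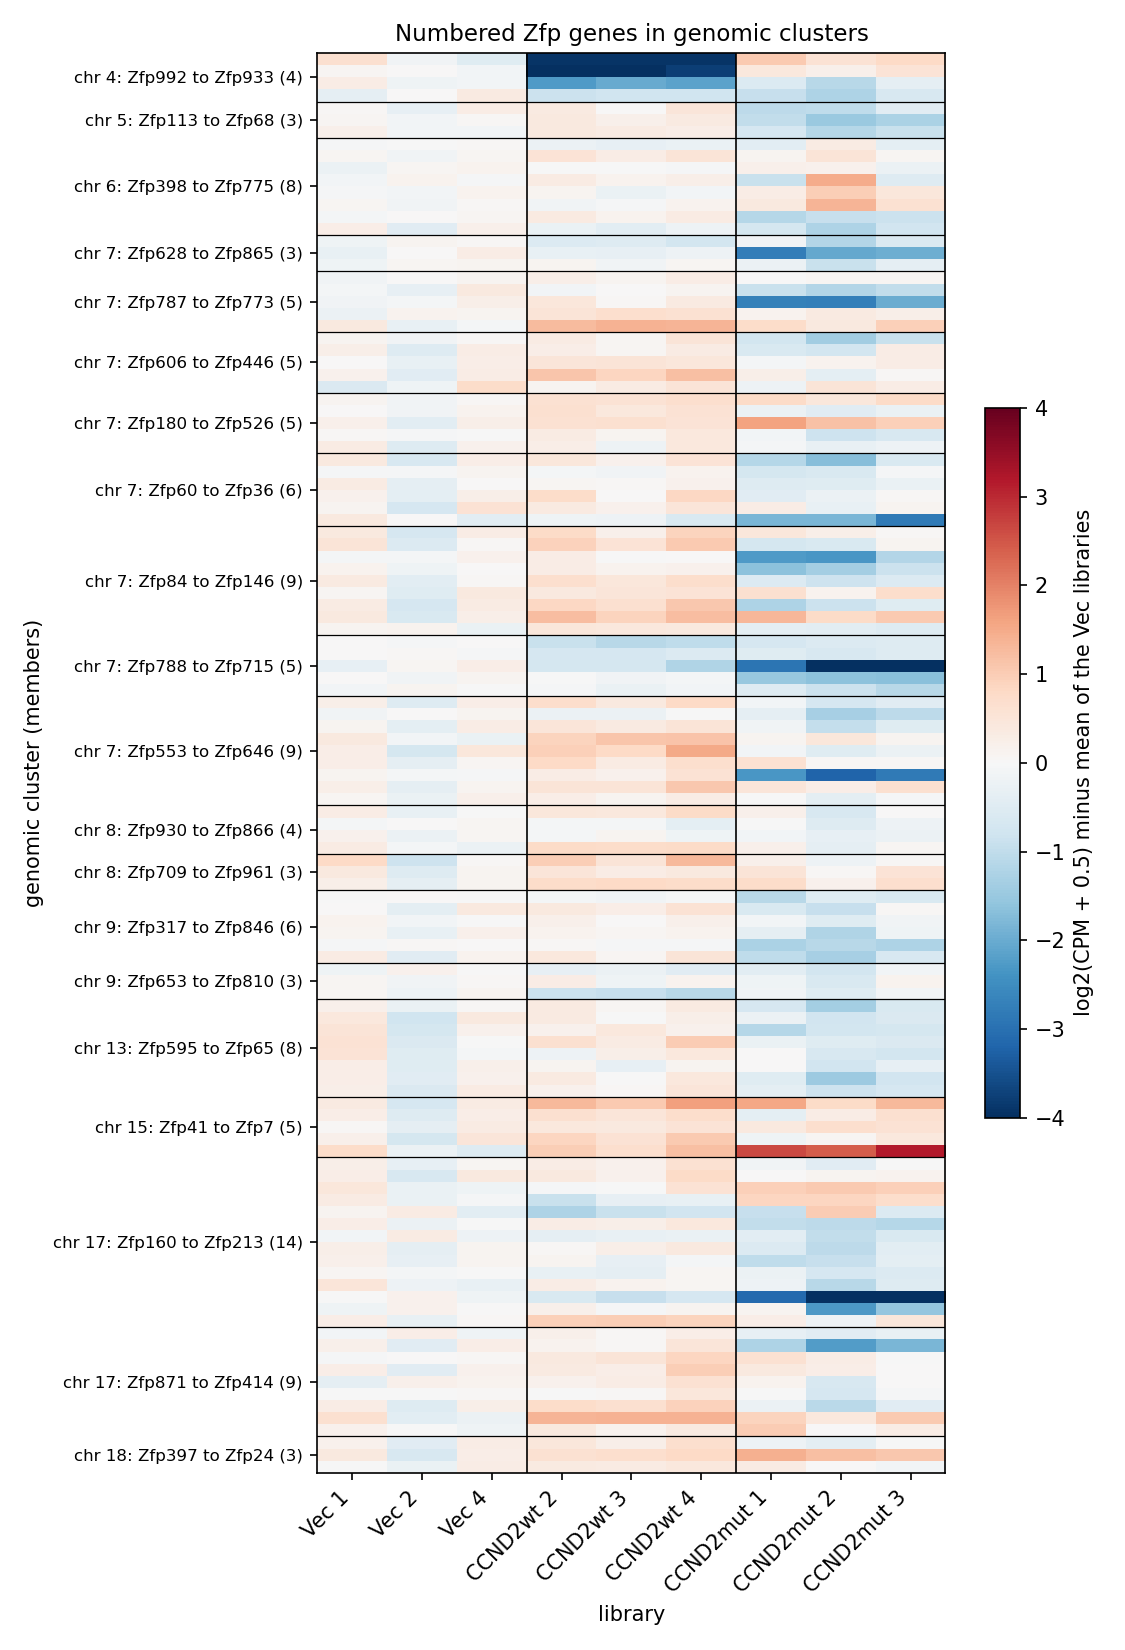
Level of the 117 clustered members (rows, in genomic order within each of 20 clusters) in each of the 9 libraries (columns), as log2(CPM + 0.5) minus the mean of the Vec libraries, with the colour scale cut at -4 and 4. The chromosome 4 cluster is dark blue in all 3 CCND2wt libraries for Zfp992 and Zfp991, and single genes on chromosomes 7 and 17 are dark blue in the CCND2mut libraries.

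The cluster on chromosome 4 (146449023 to 147848366) was the one in which every member fell in CCND2wt against Vec. It holds Zfp992, Zfp991, Zfp984 and Zfp933, out of 13 numbered Zfp genes in its span, all annotated as C2H2 proteins. Zfp992 (chromosome 4, 146449023 to 146470292) stood at 13.9, 7.91 and 6.17 CPM in Vec, 0.114, 0.118 and 0.120 in CCND2wt, and 18.9, 13.3 and 15.6 in CCND2mut. Its 3 CCND2wt libraries held 6 reads in all, against 452 in Vec, a ratio of 80.4 (95% counting interval 36.7 to 220). Zfp991 (chromosome 4, 147132038 to 147180579) stood at 12.9, 12.31 and 11.3 CPM in Vec, 0.171, 0.178 and 0.421 in CCND2wt, and 16.6, 14.1 and 17.9 in CCND2mut, with 13 reads in CCND2wt against 584 in Vec, a ratio of 47.9 (27.8 to 90.6). In both genes the CCND2wt libraries lay near 0, apart from all Vec and CCND2mut libraries. On the log2 scale Zfp992 fell by 6.35 (SE 0.43, edgeR adjusted p = 1.42e-04) and Zfp991 by 5.67 (SE 0.33, adjusted p = 8.46e-05). Both calls were kept when each library was left out in turn and when the CCND2wt libraries were summed to 1 sample.

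The other members of that cluster, Zfp984 and Zfp933, fell less. Zfp984 (chromosome 4, 147753974 to 147809788) stood at 34.7, 25.00 and 26.5 CPM in Vec, 5.57, 6.69 and 6.13 in CCND2wt, and 19.4, 12.9 and 21.9 in CCND2mut, with no overlap between CCND2wt and either of the other groups. It fell by 2.35 on the log2 scale in CCND2wt (SE 0.21, edgeR adjusted p = 5.69e-04), and it overlaps the long noncoding RNA Gm20707, which fell as well (9.24, 4.97 and 5.59 to 0.455, 1.48 and 0.541 CPM, edgeR adjusted p = 0.00514). Of 8 genes of at least 1 CPM in the span that are not members, Gm20707 among them, 3 fell and none rose in CCND2wt against Vec. Zfp933 (chromosome 4, 147822986 to 147848366) stood at 8.88, 11.7 and 15.2 CPM in Vec, 6.14, 6.51 and 6.49 in CCND2wt, and 5.96, 4.71 and 7.25 in CCND2mut. It was lower than Vec in all libraries of both other groups, and it fell in both (log2 fold changes -1.03 in CCND2wt and -0.97 in CCND2mut, edgeR adjusted p = 0.0219 and 0.0102). The CCND2wt call was lost without Vec 2, Vec 4, CCND2wt 2, CCND2wt 3 or CCND2wt 4 (adjusted p up to 0.0973). In CCND2mut against CCND2wt, Zfp992, Zfp991 and Zfp984 were higher by 7.16, 6.11 and 1.72 on the log2 scale, and Zfp933 differed by 0.06 (edgeR adjusted p = 0.846).

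**Figure D3:**
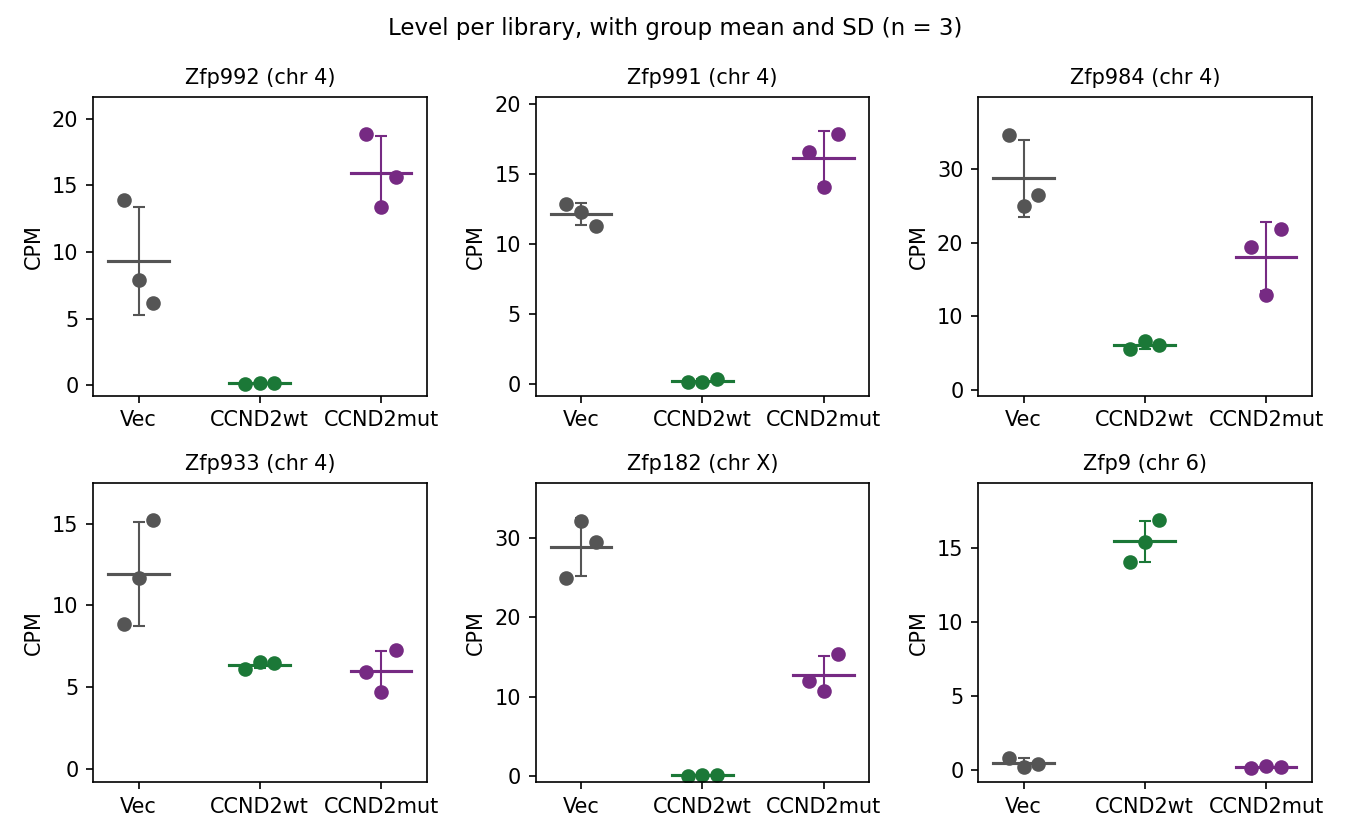
Level (CPM, y axis, own scale per panel) of Zfp992, Zfp991, Zfp984, Zfp933, Zfp182 and Zfp9 in each library (points), with the mean (line) and SD (error bar) of the 3 libraries per group. Zfp992, Zfp991 and Zfp182 lie near 0 in CCND2wt and Zfp9 in Vec and CCND2mut, while the libraries of the other groups lie apart.

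Zfp182, a C2H2 gene of the X chromosome (chromosome X, 21028939 to 21062316), was looked up because its pattern was known, so that its values are a description without a test, although the counts of called members include it. It stood at 24.96, 32.2 and 29.5 CPM in Vec, 0, 0.0592 and 0.120 in CCND2wt, and 11.97, 10.7 and 15.4 in CCND2mut. Its CCND2wt libraries held 3 reads in all, against 1380 in Vec and 617 in CCND2mut, ratios of 491 (95% counting interval 168 to 2384) and 215 (73.2 to 1045), and the CCND2mut libraries lay below every Vec library. The X chromosome holds 3 other members, Zfp280c, Zfp275 and Zfp711, of which Zfp280c and Zfp275 were singled out after their values were seen. The libraries also differed in sex-linked transcripts. Xist, which coats the silenced X chromosome of female cells, stood at 169, 10.01 and 881 CPM in Vec, 2445, 2206 and 2517 in CCND2wt, and 4.15, 10.5 and 4.92 in CCND2mut. Ddx3y, a gene of the Y chromosome, stood at 134, 298 and 64.6 CPM in Vec, 0.682, 0.651 and 0.661 in CCND2wt, and 26.3, 0 and 0 in CCND2mut. Xist was thus high in all CCND2wt libraries, between 4.15 and 10.5 CPM in CCND2mut, and spread from 10.01 to 881 CPM in Vec, where Vec 2 lay within the range of CCND2mut. Ddx3y was at 64.6 CPM or more in Vec and also present in CCND2mut 1, and the part of this in the X-linked values was not tested.

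Of those X-linked genes, Zfp711, a partner of the histone demethylase PHF8, stood at 97.7, 112 and 41.9 CPM in Vec, 56.6, 64.9 and 54.3 in CCND2wt, and 1.52, 0.119 and 0 in CCND2mut. The CCND2mut libraries held 28 reads in all, against 4042 in Vec, a ratio of 148 (95% counting interval 102 to 222), and lay far below all others. Zfp711 fell by 7.18 on the log2 scale against Vec (SE 0.90, edgeR adjusted p = 3.81e-04) and was lower than in CCND2wt (log2 difference -6.52, adjusted p = 5.73e-04). Zfp275 stood at 53.5, 69.2 and 66.0 CPM in Vec, 62.0, 61.2 and 65.3 in CCND2wt, and 19.7, 18.1 and 15.02 in CCND2mut and fell by 1.79 in CCND2mut against Vec (edgeR adjusted p = 7.90e-05). Zfp280c fell in both (log2 fold changes -0.49 in CCND2wt and -0.56 in CCND2mut), and its CCND2wt call was lost without Vec 2, CCND2wt 2, CCND2wt 3 or CCND2wt 4 (adjusted p up to 0.122).

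Outside the chromosome 4 cluster, CCND2wt against Vec gave few large changes. Zfp9 (chromosome 6, 118461950 to 118479320) stood at 0.840, 0.191 and 0.386 CPM in Vec, 14.1, 15.4 and 16.9 in CCND2wt, and 0.117, 0.298 and 0.199 in CCND2mut, so that it was near 0 in Vec and CCND2mut and above 14 CPM in every CCND2wt library. It reached the level of 5 CPM through CCND2wt alone. Zfp827, whose human counterpart ZNF827 brings the NuRD complex to telomeres, stood at 0.900, 0.510 and 1.35 CPM in Vec, 15.5, 15.3 and 14.3 in CCND2wt, and 0.117, 0 and 0.0665 in CCND2mut. It also reached the level through CCND2wt alone, with no overlap between CCND2wt and another group. Zfp64, whose human counterpart binds the promoter of the leukaemia gene MLL, stood at 66.7, 85.6 and 60.8 CPM in Vec, 17.6, 16.3 and 19.1 in CCND2wt, and 21.7, 24.4 and 24.4 in CCND2mut. It fell by 2.14 in CCND2wt (edgeR adjusted p = 2.88e-04) and by 1.56 in CCND2mut (adjusted p = 1.66e-04), with every Vec library above all others. Zfp367 stood at 40.3, 35.2 and 27.2 CPM in Vec, 77.0, 80.0 and 71.9 in CCND2wt, and 102, 83.1 and 86.4 in CCND2mut and rose against Vec in both (by 1.03 and 1.44, edgeR adjusted p = 0.00468 and 2.09e-04).

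Calls in CCND2wt against Vec rested on few libraries. Without Zfp182, 32 members were called, of which 12 kept the call when each library was left out in turn. Among these, Zfp367, Zfp773, Zfp518a and Zfp704 rose, and Zfp992, Zfp991, Zfp984, Zfp64, Zfp788 and Zfp141 fell. The 12 also count Zfp9 and Zfp827, which reached the level through CCND2wt alone, so that their calls are not used as evidence. The count of rising members, 19, was 9 without Vec 4 and 6 without CCND2wt 2, 3 or 4, and that of falling members, 14, was 9 without Vec 2 or CCND2wt 2, 8 without CCND2wt 3 and 7 without CCND2wt 4. With the CCND2wt libraries summed to 1 sample, Zfp992 and Zfp991 kept the call. Again without Zfp182, in CCND2mut against Vec 78 of 108 calls, and in CCND2mut against CCND2wt 71 of 104, held with each library left out. With the CCND2wt libraries summed, 71 of 108 and 33 of 104 calls held in that and every other setting.

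Of the 53 members on chromosome 7, 21 fell and 5 rose in CCND2mut against Vec. These are 39.6% and 9.43%, beside 35.8% and 11.8% of all members and 26.9% and 24.9% of all genes tested. In the cluster at 41633203 to 43313294, all 5 members fell. Zfp976 stood at 8.16, 10.97 and 12.7 CPM in Vec, 6.25, 6.27 and 4.27 in CCND2wt, and 0.934, 0.119 and 0.0665 in CCND2mut, with CCND2mut near 0, and fell by 4.74 (SE 0.75, edgeR adjusted p = 0.00104). Zfp975, from the same cluster, stood at 7.02, 6.19 and 7.52 CPM in Vec, 6.76, 6.21 and 6.55 in CCND2wt, and 2.10, 1.85 and 1.79 in CCND2mut and fell by 1.802 (edgeR adjusted p = 2.85e-04), while in CCND2wt it was not called (-0.21, adjusted p = 0.501). Zfp788 and Zfp141, also of that cluster, fell in both groups. Zfp788 stood at 14.8, 14.0 and 14.6 CPM in Vec, 7.503, 6.45 and 6.85 in CCND2wt, and 8.88, 9.83 and 10.04 in CCND2mut, with all Vec libraries highest and all CCND2wt libraries lowest, and fell by 1.19 in CCND2wt and 0.55 in CCND2mut (edgeR adjusted p = 0.00287 and 0.0196). The CCND2mut call was lost with no filter on low counts, with only the 2 groups fitted and with the replicate number as a block. It was also lost with the CCND2wt libraries summed and with Vec 1 and CCND2mut 1 left out (edgeR adjusted p up to 0.0957). Zfp141 fell by 0.78 and 0.53 (edgeR adjusted p = 0.00381 and 0.00506).

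The cluster at 29768552 to 30169750 on chromosome 7 holds 9 members, of which 5 fell and 1 rose in CCND2mut against Vec, beside 26.9% and 24.9% of all genes tested. The 5 falls were 2 without Vec 1 or CCND2mut 1 and 3 without Vec 4, CCND2mut 2, CCND2mut 3 or any 1 of the CCND2wt libraries, and the 1 rise was 2 without Vec 4 or CCND2mut 2. Zfp420 stood at 7.38, 7.27 and 8.74 CPM in Vec, 9.72, 7.69 and 7.81 in CCND2wt, and 1.23, 1.13 and 3.19 in CCND2mut and fell by 2.06 (edgeR adjusted p = 0.00225). Zfp27 stood at 7.98, 6.44 and 7.39 CPM in Vec, 9.04, 7.99 and 8.29 in CCND2wt, and 1.99, 2.503 and 3.72 in CCND2mut and fell by 1.37 (edgeR adjusted p = 0.00247). In both genes every CCND2mut library lay below every other library. Zfp382, from the same cluster, stood at 7.74, 3.57 and 6.81 CPM in Vec, 14.4, 11.1 and 14.2 in CCND2wt, and 15.1, 10.1 and 12.4 in CCND2mut, with every Vec library below all others, and rose by 1.10 in CCND2mut (edgeR adjusted p = 0.0110). Against CCND2wt, 6 of the 9 were lower in CCND2mut and none was higher, beside 23.8% and 23.2% of all genes tested.

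Further clusters of chromosome 7 were mixed. In the cluster at 127233061 to 127885996, Zfp629 stood at 31.1, 27.0 and 28.0 CPM in Vec, 35.7, 32.6 and 43.1 in CCND2wt, and 5.31, 2.68 and 3.59 in CCND2mut and fell by 2.86 in CCND2mut against Vec (SE 0.23, edgeR adjusted p = 5.21e-05), beside 1 other of 9 members that fell. The count of 2 was 4 without Vec 2 and 1 without CCND2mut 3. In the cluster at 6131491 to 7136755, Zfp28 stood at 9.36, 9.88 and 12.2 CPM in Vec, 14.3, 10.8 and 13.5 in CCND2wt, and 1.17, 1.13 and 2.26 in CCND2mut and fell by 2.76 in CCND2mut (edgeR adjusted p = 1.60e-04). Zfp773, from the same cluster, stood at 11.2, 6.76 and 8.10 CPM in Vec, 21.3, 23.02 and 22.5 in CCND2wt, and 14.5, 11.3 and 16.8 in CCND2mut and rose by 1.23 in CCND2wt (edgeR adjusted p = 0.00604), so that the cluster held changes in both directions. Zfp773 also rose in CCND2mut (0.74), a call lost without Vec 4 (adjusted p up to 0.0514). Zfp579, in the cluster at 4915217 to 5036768, stood at 32.9, 41.0 and 49.7 CPM in Vec, 33.0, 32.4 and 35.2 in CCND2wt, and 5.55, 9.36 and 10.1 in CCND2mut and fell by 2.26 in CCND2mut (edgeR adjusted p = 1.80e-04). At 24081924 to 25227507 no member fell by edgeR in either comparison with Vec (1 was lower in CCND2mut at an unadjusted p below 0.05 and by DESeq2). Counted as rising in CCND2mut were 2 of 5, Zfp180 and Zfp61, of which Zfp61 is given by its values only. Zfp61, which reached the level through CCND2mut alone, stood at 3.601, 2.17 and 3.73 CPM in Vec, 5.002, 5.15 and 4.75 in CCND2wt, and 10.5, 7.57 and 6.51 in CCND2mut, with every CCND2mut library highest.

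On chromosome 17, the cluster at 21008903 to 23564238 was the largest, with 14 members, of which 5 fell and 2 rose in CCND2mut against Vec. Of all members 35.8% fell and 11.8% rose, and of all genes tested 26.9% and 24.9%. The 5 falls were 3 without Vec 1, Vec 4 or CCND2mut 2, and the 2 rises were 1 without Vec 2, Vec 4 or CCND2mut 2. Zfp945 stood at 36.0, 40.7 and 32.1 CPM in Vec, 23.4, 18.8 and 22.6 in CCND2wt, and 3.74, 1.67 and 1.60 in CCND2mut, so that the groups did not overlap and CCND2mut was lowest. It fell by 3.91 in CCND2mut (SE 0.33, edgeR adjusted p = 6.40e-05). In CCND2wt the fold change of -0.88 did not pass (adjusted p = 0.0661). Zfp983 fell by 1.11 in CCND2mut (edgeR adjusted p = 0.00240). Zfp51 stood at 9.36, 5.48 and 5.98 CPM in Vec, 6.48, 6.75 and 10.3 in CCND2wt, and 13.5, 14.4 and 13.7 in CCND2mut and rose by 1.05 in CCND2mut (edgeR adjusted p = 0.0104), and Zfp53, from the same cluster, rose by 0.90, a call lost without Vec 2, Vec 4 or CCND2mut 2 (adjusted p up to 0.0636). In the cluster at 32771236 to 33631779, Zfp799 stood at 9.60, 5.93 and 9.96 CPM in Vec, 9.15, 8.52 and 11.7 in CCND2wt, and 3.27, 1.37 and 1.99 in CCND2mut and fell by 1.90 in CCND2mut (edgeR adjusted p = 0.00207). Zfp101, from the same cluster, rose by 1.23 in CCND2wt (edgeR adjusted p = 0.0194), a call lost without Vec 4, CCND2wt 2, CCND2wt 3 or CCND2wt 4 (adjusted p up to 0.0686).

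On chromosome 5 (138139702 to 138619761), all 3 members of a cluster fell in CCND2mut against Vec and none passed in CCND2wt, by edgeR, by its unadjusted p below 0.05 or by DESeq2. This count and those of the next clusters lie beside the 26.9% of all genes tested that fell in CCND2mut against Vec. Zfp157 stood at 19.0, 16.9 and 18.6 CPM in Vec, 24.2, 20.8 and 23.3 in CCND2wt, and 8.88, 6.20 and 7.18 in CCND2mut and fell by 1.25 (edgeR adjusted p = 3.70e-04). Zfp68 fell by 0.87 and Zfp113 by 0.84 (edgeR adjusted p = 0.00119 and 0.0127). In the chromosome 9 cluster at 19622102 to 20605409, 3 of 6 fell, among them Zfp266, which stood at 40.6, 43.3 and 42.1 CPM in Vec, 43.4, 40.8 and 40.6 in CCND2wt, and 17.3, 19.1 and 17.5 in CCND2mut and fell by 1.18 (edgeR adjusted p = 1.39e-04). In the chromosome 13 cluster at 67312998 to 67729173, 3 of 8 fell, but 1 without Vec 1, Vec 4 or CCND2mut 3 and 5 without Vec 2. There Zfp595 fell by 0.92 (edgeR adjusted p = 0.0203). The call was lost with no filter on low counts, with only the 2 groups fitted, with a replicate block and with the CCND2wt libraries summed (adjusted p up to 0.0784).

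The cluster on chromosome 15 (75616679 to 76892395) went the other way, with 3 of 5 members rising in CCND2mut against Vec and none falling. Of all genes tested 24.9% rose and 26.9% fell. Zfp7 stood at 5.28, 2.42 and 1.93 CPM in Vec, 6.37, 5.03 and 7.51 in CCND2wt, and 20.9, 18.1 and 30.5 in CCND2mut, with every CCND2mut library above all others, and rose by 2.88 (SE 0.39, edgeR adjusted p = 4.81e-04). Zfp7 passed the level rule largely through CCND2mut, so that this rise is a description. Zfp41 stood at 11.6, 5.48 and 11.4 CPM in Vec, 22.7, 19.4 and 29.2 in CCND2wt, and 27.4, 15.9 and 23.1 in CCND2mut and rose by 1.26 in CCND2mut and 1.198 in CCND2wt (edgeR adjusted p = 0.00762 and 0.0269). The CCND2wt call was lost without CCND2wt 2, CCND2wt 3 or CCND2wt 4 (adjusted p up to 0.107). On chromosome 6 (47835661 to 48623227), 2 of 8 rose and 2 fell in CCND2mut against Vec, beside the same 24.9% and 26.9%. The 2 rises were 1 without Vec 1 or CCND2mut 2 and 0 without Vec 2, and the 2 falls were 4 without CCND2mut 2. Zfp746 (PARIS), a repressor that Parkin marks for degradation, stood at 60.8, 52.5 and 59.6 CPM in Vec, 52.2, 55.5 and 63.3 in CCND2wt, and 75.6, 149.9 and 88.9 in CCND2mut and rose by 0.92 in CCND2mut (edgeR adjusted p = 0.0166), a call lost without Vec 2 (adjusted p up to 0.0607). Zfp467 stood at 50.0, 54.1 and 56.2 CPM in Vec, 68.7, 58.4 and 67.5 in CCND2wt, and 23.9, 27.9 and 29.1 in CCND2mut and fell by 0.95 (edgeR adjusted p = 3.81e-04). On chromosome 18 (23954692 to 24020810), Zfp35 stood at 30.5, 14.6 and 27.7 CPM in Vec, 35.6, 37.2 and 41.0 in CCND2wt, and 62.6, 54.0 and 49.1 in CCND2mut and rose by 1.24 in CCND2mut (edgeR adjusted p = 0.00273). The chromosome 8 cluster at 69209038 to 69791178 gave no edgeR call among 4 members in either comparison with Vec, with 1 member higher in CCND2wt at an unadjusted p below 0.05 and by DESeq2.

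The members with known roles were grouped into 3 lists. The first holds 11 proteins that act on RNA, ribosomes or the spindle. None of them passed edgeR or DESeq2 in CCND2wt against Vec (unadjusted p below 0.05 in edgeR for 2 higher and 1 lower), while in CCND2mut 2 rose and 3 fell (median log2 fold change -0.17). The 27.3% that fell lies beside 26.9% of all genes tested and the 18.2% that rose beside 24.9%, and the count of falls was 5 without CCND2mut 2. Zfp36 (tristetraprolin) binds AU-rich elements of messenger RNAs and starts their decay, and it stood at 3827, 2955 and 2189.8 CPM in Vec, 2614, 2522 and 1911 in CCND2wt, and 815, 828 and 407 in CCND2mut. Every CCND2mut library lay below the others, and Zfp36 fell by 2.07 (SE 0.34, edgeR adjusted p = 0.00131). Its relatives Zfp36l1 and Zfp36l2 bind the same elements. Zfp36l1, which overlaps the noncoding RNA Gm26669, stood at 271, 293 and 199.8 CPM in Vec, 228, 308 and 218 in CCND2wt, and 62.2, 290.5 and 103 in CCND2mut, with groups that overlapped. Zfp36l2 stood at 1414, 776 and 948 CPM in Vec, 1074, 1371 and 1428 in CCND2wt, and 616, 996 and 342 in CCND2mut, with CCND2mut below every CCND2wt library but overlapping Vec. Against Vec their values in CCND2mut were -0.67 and -0.61 (edgeR adjusted p = 0.315 and 0.227).

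Other RNA proteins moved in both directions. Zfp326, a subunit of the DBIRD complex of transcript elongation and splicing, stood at 47.9, 84.9 and 59.4 CPM in Vec, 64.7, 78.4 and 68.0 in CCND2wt, and 37.7, 28.7 and 28.1 in CCND2mut and fell by 0.99 in CCND2mut (edgeR adjusted p = 0.00757). Zfp106, an RNA-binding protein, fell by 0.59 (edgeR adjusted p = 0.00875). Zfp346, which binds double-stranded RNA, stood at 28.0, 24.3 and 22.9 CPM in Vec, 29.4, 23.5 and 29.6 in CCND2wt, and 34.1, 59.6 and 43.7 in CCND2mut and rose by 0.92 in CCND2mut (edgeR adjusted p = 0.00891), with no overlap with either of the other groups. Zfp830 rose by 0.71 (edgeR adjusted p = 0.0112). Zfp598, the ligase that marks collided ribosomes, Zfp622, a maturation factor of the large ribosomal subunit, and Zfp207 (BuGZ), a spindle protein, passed in no comparison.

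**Figure D4:**
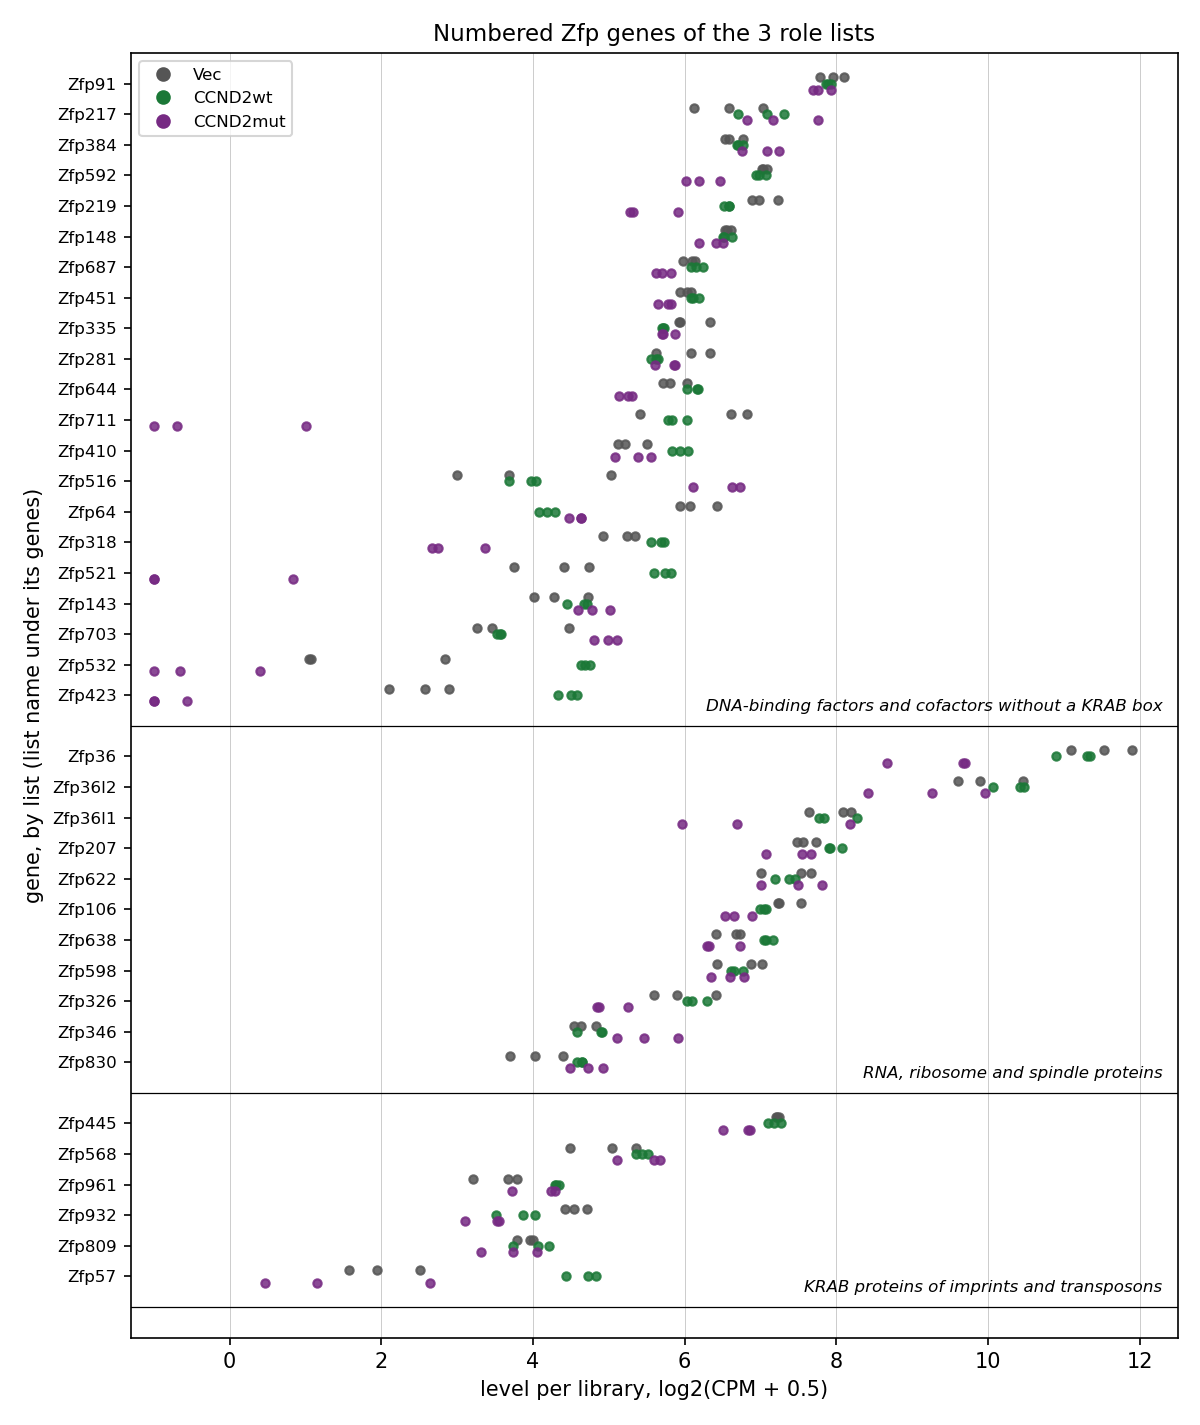
Level of the 38 members of the 3 role lists in each library, as log2(CPM + 0.5) on the x axis, a log scale, with 1 gene per row and 1 point per library, coloured by group. Zfp711, Zfp521 and Zfp423 have CCND2mut points far to the left of the other groups, and Zfp516 and Zfp703 have them to the right. Zfp532 has CCND2mut points to the left as well, but CCND2mut 1 lies close to Vec.

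The second list holds 22 DNA-binding factors and cofactors without a KRAB box, of which 21 were members (Zfp462 stood at 0.255 CPM). In CCND2wt against Vec 3 rose and 2 fell (14.3% and 9.52%, beside 9.71% and 9.05% of all genes tested). The 3 count Zfp532, which reached the level through CCND2wt alone. In CCND2mut against Vec 3 rose and 10 fell (median log2 fold change -0.29). The shares in CCND2mut were 14.3% and 47.6%, beside 24.9% and 26.9% of all genes tested, with 5 rising without Vec 1. In CCND2wt, 0 rose without Vec 4 or any 1 of the CCND2wt libraries and 1 without Vec 2, and 1 fell without Vec 2, CCND2mut 3 or any 1 of the CCND2wt libraries. Zfp521, a factor of stem cells and an antagonist of EBF1 in B cell development, stood at 12.96, 26.1 and 20.8 CPM in Vec, 53.1, 56.1 and 47.8 in CCND2wt, and 1.28, 0 and 0 in CCND2mut. The CCND2mut libraries held 22 reads against 949 in Vec, a ratio of 44.1 (95% counting interval 28.9 to 70.7), and Zfp521 fell by 5.45 (SE 0.95, edgeR adjusted p = 0.00185). Its relative Zfp423, which also binds EBF1, stood at 6.90, 5.48 and 3.79 CPM in Vec, 22.2, 19.6 and 23.5 in CCND2wt, and 0.175, 0 and 0 in CCND2mut. It fell to 3 reads in CCND2mut (log2 fold change -6.27, edgeR adjusted p = 1.85e-04) and rose by 1.88 in CCND2wt (adjusted p = 0.0241), a call lost without Vec 2, Vec 4, CCND2wt 2, CCND2wt 3 or CCND2wt 4 (adjusted p up to 0.111). Zfp423 passed the level rule largely through CCND2wt, so that this rise is a description. Zfp318, needed in B cells for the switch from IgM to IgD transcripts, stood at 37.4, 40.1 and 29.8 CPM in Vec, 52.5, 46.5 and 51.1 in CCND2wt, and 6.19, 9.83 and 5.85 in CCND2mut and fell by 2.24 in CCND2mut (edgeR adjusted p = 2.06e-04). The B cell and progenitor marker sums given above were also low in CCND2mut, and their part in these falls was not tested. In CCND2wt, Zfp521, Zfp423 and Zfp318 were each above every Vec library, but of these edgeR called Zfp423 only. All CCND2wt libraries lay above all Vec libraries for 73 of 229 members and for 4883 of 15660 genes tested. In CCND2wt the B cell markers summed to 33.8 to 36.8 CPM (82.96 to 1182 in Vec). The stem and progenitor markers summed to 2057 to 2169 CPM (1482 to 1883 in Vec). Yet 4 of these 6 markers had a log2 fold change below 0 in CCND2wt, 1 was called lower and 0 higher. The part of either list was not tested.

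Zfp592, Zfp687 and Zfp532 bind ZMYND8 in a shared chromatin complex. Zfp592 stood at 129.8, 130.0 and 135 CPM in Vec, 135, 122 and 125 in CCND2wt, and 87.6, 64.1 and 72.3 in CCND2mut and fell by 0.78 in CCND2mut (edgeR adjusted p = 7.42e-04), and Zfp687 fell by 0.32, a call lost without CCND2mut 3 (adjusted p up to 0.0638). The Zfp687 call was also lost with no filter on low counts, with only the 2 groups fitted and with a replicate block. Zfp532 stood at 1.56, 6.63 and 1.61 CPM in Vec, 24.4, 25.3 and 26.4 in CCND2wt, and 0.817, 0 and 0.133 in CCND2mut, with CCND2wt above and CCND2mut below every Vec library. It reached the level of 5 CPM through CCND2wt alone. Zfp644, which joins the methyltransferases G9a and GLP, fell by 0.60, and Zfp219 by 1.45 in CCND2mut (edgeR adjusted p = 0.00363 and 6.63e-04).

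Few factors of that list rose in CCND2mut against Vec. Zfp516, a factor of brown fat, stood at 32.0, 12.31 and 7.52 CPM in Vec, 15.2, 12.31 and 15.9 in CCND2wt, and 106, 68.6 and 98.0 in CCND2mut and rose by 2.43 (SE 0.47, edgeR adjusted p = 0.00298), with every CCND2mut library above all others. Zfp703, a cofactor amplified in human breast cancer, stood at 10.5, 21.7 and 9.06 CPM in Vec, 11.3, 11.4 and 11.1 in CCND2wt, and 34.0, 31.3 and 27.5 in CCND2mut and rose by 1.197 (edgeR adjusted p = 0.0149), a call lost with Vec 1 and CCND2mut 1 left out (adjusted p = 0.0619). Zfp384, a fusion partner in human lymphoblastic leukaemia, rose by 0.45 (edgeR adjusted p = 0.0111), a call lost with only the 2 groups fitted or the CCND2wt libraries summed (adjusted p up to 0.0536). Zfp410, an activator of Chd4, rose by 0.52 in CCND2wt (edgeR adjusted p = 0.0274), a call lost without Vec 2, Vec 4, CCND2wt 2, CCND2wt 3 or CCND2wt 4 (adjusted p up to 0.107). Zfp143, Zfp148, Zfp217, Zfp281, Zfp451 and Zfp91 passed in no comparison. Outside the lists, Zfp385a (Hzf), a p53 target, stood at 12.2, 6.38 and 5.65 CPM in Vec, 5.68, 4.62 and 6.37 in CCND2wt, and 30.9, 14.3 and 21.5 in CCND2mut and rose by 1.49 in CCND2mut (edgeR adjusted p = 0.00755), and Zfp831 stood at 149, 158 and 164 CPM in Vec, 104, 95.3 and 104 in CCND2wt, and 16.4, 15.9 and 7.51 in CCND2mut and fell by 3.51 (adjusted p = 6.47e-05).

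The third list holds 10 KRAB proteins with known imprinted or retroviral targets, of which 6 were members and 4 lay below 5 CPM (Zfp429 at 3.17, Zfp457 at 0.198 and Zfp459 at 0.175 CPM, and Zfp708 at 0). In CCND2wt against Vec 1 rose and 1 fell (16.7% each, beside 9.71% and 9.05% of all genes tested). In CCND2mut against Vec 1 rose and 2 fell (16.7% and 33.3%, beside 24.9% and 26.9% of all genes tested). The count of rising members in either comparison and that of falling ones in CCND2wt were 0 without CCND2wt 3 or CCND2wt 4. Both counts of rising members were also 0 without Vec 2 or CCND2wt 2, and that in CCND2mut without CCND2mut 1 or CCND2mut 3. Zfp57, which keeps DNA methylation at imprinted loci, stood at 3.36, 2.49 and 5.20 CPM in Vec, 21.1, 26.0 and 27.9 in CCND2wt, and 0.876, 1.73 and 5.72 in CCND2mut. All CCND2wt libraries lay above the others, and Zfp57 reached the level of 5 CPM through that group alone. Zfp445, the other keeper of imprints, stood at 151, 147 and 148 CPM in Vec, 145, 136 and 154 in CCND2wt, and 115, 90.0 and 114 in CCND2mut and fell by 0.45 in CCND2mut (edgeR adjusted p = 0.00516). Zfp932, which binds endogenous retroviruses, stood at 21.0, 22.7 and 25.8 CPM in Vec, 15.7, 14.1 and 10.9 in CCND2wt, and 10.98, 8.10 and 11.2 in CCND2mut and fell by 0.90 in CCND2wt and 1.16 in CCND2mut (edgeR adjusted p = 0.0151 and 0.00131), the CCND2wt call being lost without CCND2wt 3 or CCND2wt 4 (adjusted p up to 0.0643). Zfp809, which binds the primer binding site of murine leukaemia virus, stood at 15.5, 13.3 and 15.1 CPM in Vec, 17.96, 12.8 and 16.3 in CCND2wt, and 12.8, 9.42 and 16.2 in CCND2mut and passed in no comparison. Zfp568, the repressor of a placental Igf2 transcript, stood at 32.5, 22.0 and 40.4 CPM in Vec, 40.5, 42.7 and 45.1 in CCND2wt, and 48.1, 33.9 and 50.5 in CCND2mut and passed in none.

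The partners of KRAB repression, 14 genes chosen by role, did not move one way. In CCND2wt against Vec 2 rose and 1 fell, in CCND2mut against Vec 5 rose and 3 fell, and between CCND2mut and CCND2wt 3 were higher and 5 lower. In either direction this is 57.1% in CCND2mut against Vec, beside 51.8% of all genes tested and 57.9% of protein-coding genes of at least 5 CPM, and 21.4% in CCND2wt, beside 18.8% and 20.4%. Between CCND2mut and CCND2wt, 21.4% were higher and 35.7% lower, beside 23.2% and 23.8% of all genes tested. Trim28 stood at 359, 415 and 481 CPM in Vec, 545, 514 and 519.6 in CCND2wt, and 415, 271 and 344 in CCND2mut. Its values against Vec were 0.20 and -0.25 (edgeR adjusted p = 0.399 and 0.216), and CCND2mut was below CCND2wt (log2 difference -0.45, adjusted p = 0.0442), a call lost without CCND2wt 2, CCND2wt 3, CCND2wt 4, CCND2mut 2 or CCND2mut 3 (adjusted p up to 0.118). Setdb1 stood at 72.7 ± 4.33 CPM in Vec, 90.5 ± 3.93 in CCND2wt and 77.2 ± 14.1 in CCND2mut (mean ± SD, n = 3) and passed in no comparison. Cbx5, which encodes the HP1 alpha protein, stood at 137, 107 and 129 CPM in Vec, 219.7, 201 and 251 in CCND2wt, and 240.3, 233 and 319 in CCND2mut and rose by 0.72 in CCND2wt and 1.13 in CCND2mut (edgeR adjusted p = 0.00918 and 2.75e-04). Pphln1, a subunit of the HUSH silencing complex, rose by 1.11 in CCND2mut (edgeR adjusted p = 1.46e-04). Trim24 and Trim33, relatives of Trim28, fell by 1.01 and 0.68 in CCND2mut (edgeR adjusted p = 4.68e-04 and 0.00268). Atf7ip, a cofactor of SETDB1, fell by 0.82 in CCND2wt (edgeR adjusted p = 0.00938), a call lost without CCND2wt 4 (adjusted p up to 0.0545).

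Of the members, 6 were called higher and 10 lower in both comparisons with the shared Vec libraries. A further 5 were called higher in CCND2wt and lower in CCND2mut, and 1 the other way round. The share of such calls over all genes tested was not computed. Zfp704, Zfp697 and Zfp423 were called higher in CCND2wt and lower in CCND2mut. Zfp532 and Zfp827 are counted with them, but reached the level through CCND2wt alone and are given by their values only. Zfp992 fell in CCND2wt and rose in CCND2mut, the last call being lost without Vec 2, Vec 4, CCND2wt 2, CCND2wt 3, CCND2wt 4, CCND2mut 1, CCND2mut 2 or CCND2mut 3 (adjusted p up to 0.128). Zfp697 stood at 7.62, 6.19 and 7.71 CPM in Vec, 14.2, 14.4 and 18.7 in CCND2wt, and 0.526, 0.179 and 0.266 in CCND2mut, with 16 reads in CCND2mut against 805 in CCND2wt, a ratio of 48.2 (95% counting interval 29.5 to 84.7). It fell by 4.39 in CCND2mut (edgeR adjusted p = 5.10e-05) and rose by 1.01 in CCND2wt (adjusted p = 0.0415), a call lost without Vec 1, Vec 2, Vec 4, CCND2wt 2, CCND2wt 3 or CCND2wt 4 (adjusted p up to 0.172). Zfp697 passed the level rule largely through CCND2wt, so that this rise is a description. In the direct comparison of CCND2mut with CCND2wt, Zfp423 (-8.15) and Zfp521 (-6.70) had large falls on the log2 scale (edgeR adjusted p = 6.06e-05 and 8.28e-04), and Zfp992 (7.16) and Zfp991 (6.11) large rises (adjusted p = 1.64e-05 and 1.06e-05). Zfp9, which reached the level through CCND2wt alone, had 10 reads in CCND2mut against 789 in CCND2wt. Counting intervals cover counting error only, since reads without molecular identifiers are not independent molecules.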

How the data were processed

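Bone marrow RNA was extracted with TRIzol and sequenced from NEBNext Ultra libraries, per the labels' protocols. The deposited table holds raw read counts per gene for 9 libraries, which the authors made with the tools named in the submitters' processing notes (CASAVA 1.8, fastp, HISAT2 2.0.5, featureCounts 1.5.0-p3 and DESeq2 1.20.0, on mm10). Neither annotation release nor strand setting is given in the sources used here. Libraries held 15043755 to 17593634 counts. Genes passing filterByExpr (15660) were fitted over all 3 groups with edgeR 4.0.16 (R 4.3.3) by its quasi-likelihood test with TMM scaling and 6 residual degrees of freedom, and called at a Benjamini-Hochberg adjusted p below 0.05 over all genes tested. CPM values used library totals. Members and lists were chosen with earlier results of these data known. Genes named were Zfp182, the members with the largest called changes without overlap of groups (up to 8 each way per comparison), called members of clusters, the 5 of highest level per length, the role and partner lists, and threshold neighbours. Intervals on ratios of summed counts are 95% exact counting intervals. Alternatives were RLE scaling, DESeq2 1.42.0, other filters, only the groups compared, a replicate block, libraries left out and the CCND2wt libraries summed. The script was tested on simulated data.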

Additional observations from a re-analysis of the deposited data

How the results depend on the processing

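The counts of members that rose and fell in CCND2wt against Vec, 19 and 14, varied most. DESeq2 called 29 rising members, and a fit of only the 2 groups compared called 24 falling ones. With Vec 1 and CCND2mut 1 left out the counts were 32 and 22. Leaving out each library in turn gave 6 to 26 rising and 7 to 19 falling members. Where the call of a gene is given as lost without named libraries, other settings may have lost it as well. With the CCND2wt libraries summed to 1 sample, edgeR called 0 rising members (11 at an unadjusted p below 0.05) and 3 falling ones, and between CCND2mut and CCND2wt 4 higher and 30 lower, a fit with fewer samples. In CCND2mut against Vec the counts, 27 and 82, stayed within 1.5 times under every alternative tried, with 20 to 27 and 72 to 84 over the libraries left out. Over 284 changes of single genes and 17 settings, 4146 of 4816 values kept their direction and their side of the threshold, 670 lost the call and 0 reversed; apart from the fits with fewer samples, the cause was not tested.

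The labels do not say whether replicate numbers pair the libraries. Same-numbered libraries of different groups had correlations of their deviations between -0.0564 and 0.152, beside -0.151 to 0.19 for differently numbered ones. Between Vec and CCND2mut the same-numbered pairs gave 0.152 and 0.128, and the other pairs at most 0.0939. With 3 libraries a group these values cannot decide whether libraries were paired. A fit with the replicate number as a block called 13 rising and 7 falling members in CCND2wt against Vec, 24 and 66 in CCND2mut against Vec, and 19 and 70 between CCND2mut and CCND2wt.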

Other observations

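Numbered Zfp genes below the level of 5 CPM were also measured, and these were chosen after their values were seen. Of 98 such genes that could be tested, 4 rose and 41 fell in CCND2mut against Vec (4.08% and 41.8%, beside 24.9% and 26.9% of all genes tested). In CCND2wt against Vec 7 rose and 5 fell (7.14% and 5.10%, beside 9.71% and 9.05%), and in CCND2mut against CCND2wt 6 were higher and 55 lower (6.12% and 56.1%, beside 23.2% and 23.8%). On chromosome 11, Zfp354c stood at 4.26, 3.83 and 2.70 CPM in Vec, 5.17, 6.39 and 5.89 in CCND2wt, and 0.117, 0 and 0 in CCND2mut. Zfp879 stood at 1.32, 0.191 and 0.514 CPM in Vec, 2.22, 1.89 and 1.803 in CCND2wt, and 0, 0 and 0 in CCND2mut. Zfp2 stood at 7.38, 6.19 and 7.07 CPM in Vec, 4.66, 5.33 and 8.23 in CCND2wt, and 0.0584, 0 and 0 in CCND2mut. In all 3 genes the CCND2mut libraries lay below every library of the other groups. Within the span of the chromosome 4 cluster, Zfp993 stood at 2.46, 2.61 and 0.964 CPM in Vec, 0.0568, 0 and 0.0601 in CCND2wt, and 3.44, 2.26 and 4.19 in CCND2mut, and Zfp979 at 2.70, 1.59 and 2.12 CPM in Vec, 0, 0 and 0 in CCND2wt, and 0.0584, 0 and 0.0665 in CCND2mut.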
